A study of Mus musculus with 12 samples.

Results

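In an interval of mouse chromosome 10 named for the genes Egr2 and Zfp365, Nrf2 peaks formed 3 merged regions, out of 4147 regions in the whole genome. The interval was set by position, 500 kb in the mm9 build, and was chosen by the rank of a single peak region near its middle, chromosome 10, 67175526 to 67176537, called the top region below. The interval reached from 226 kb below to 274 kb above the centre of that region. Of all regions found in every library, it had the best mean rank as a share of the list, 0.239%. The lead was narrow, since a region on chromosome 3, 50241592 to 50242696, had 0.264%. Ranked among these shared regions alone, the top region averaged 3.33 in WT and 1 in AY. Another region averaged 1 and 3.33, so by that measure neither led. Every peak that overlapped the interval was taken, 10 of the 8644 peaks in all. As its rank chose the interval, the rank values of the top region are given as a description and were not tested.

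Nrf2 was mapped by chromatin immunoprecipitation and sequencing (ChIP-seq) in peritoneal macrophages from mice of 7 to 8 weeks, collected 4 days after 4% thioglycolate broth had been given into the peritoneum to attract them. One group carried wild-type Nrf2 (WT, 3 libraries) and the other was homozygous for the mutant allele, Nrf2(AY/AY) (AY, 3 libraries). Cells of both groups had been treated with 100 µM diethyl maleate, an electrophile, for 4 hours, so no untreated state was compared. The labels give the allele as homozygous and name no promoter or Cre that would limit it to a cell type. Peak lists say nothing about gene expression, so the macrophage label was not checked against marker genes.

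Nrf2 is a basic leucine zipper factor that is held at low levels by Keap1, which directs its breakdown, and that accumulates when electrophiles modify Keap1. It binds DNA together with a small Maf protein, at antioxidant response elements near genes for detoxification, glutathione metabolism and iron handling. The AY allele replaces an alanine by a tyrosine in the part of Nrf2 that touches DNA and is known to change which Maf-type element the pair prefers. Egr2 (Krox20) encodes a zinc finger transcription factor known for its role in myelination and, in macrophages, as a gene induced by interleukin-4. Zfp365 encodes a protein known for roles in genome stability. In the RefSeq gene order of GRCm38, a later build than that of the peaks, Ado (cysteamine dioxygenase) was the 1 protein-coding gene between Egr2 and Zfp365, beside 8 long non-coding RNA genes and 1 pseudogene. The next protein-coding genes on the outer sides were Nrbf2 and Rtkn2. As the builds differ, the place of these genes within the interval was not checked, and no peak was assigned to an exon, an intron, a promoter or the space between these genes.

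The lists were between 826 (WT replicate 2) and 2154 (AY replicate 1) peaks long. Their read depth is unknown, so a peak can be missing from a list because the library was shallow. WT replicates 1 and 3 had no peak on the Y chromosome or its random sequence, whereas the other 4 libraries had 15 to 27, and WT replicate 3 had 121 peaks on X against 12 to 46 elsewhere. What this difference does to the values below was not tested. The closing section leaves out 1 library at a time, never WT replicates 1 and 3 together.

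The interval held 3 peaks in WT replicate 1, 2 in WT replicate 2, 2 in WT replicate 3 and 1 in each AY library. Every WT library thus had more peaks here than any AY library, which was so in 6.44% of intervals of the same shape around the 202 regions found in all 6 libraries; counts did not overlap, in either direction, in 11.9%. The separation depended on the edges: with 100 kb added on each side, the counts were 4, 2 and 3 in WT replicates 1 to 3 and 2, 1 and 1 in AY replicates 1 to 3, and they overlapped (two-sided exact permutation p = 0.2). WT libraries averaged 2.33 ± 0.577 peaks and AY libraries 1 ± 0 (SD, n = 3 each), so that AY minus WT came to -1.33 (two-sided exact permutation p = 0.1, the smallest that 20 assignments of the labels allow). This difference is made up of the WT region and the weak peak of WT replicate 1 described below, so it is no evidence apart from them. The 3 regions covered 2279 bp, 0.456% of the interval. Within the interval, no library had a peak in the 159 kb below the first region or the 273 kb above the last one. Both lengths run only to the edges of the interval, which were set by position. The number of other regions within 250 kb of the top region was 2, equal to the median over the 202 regions.

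**Figure D1:**
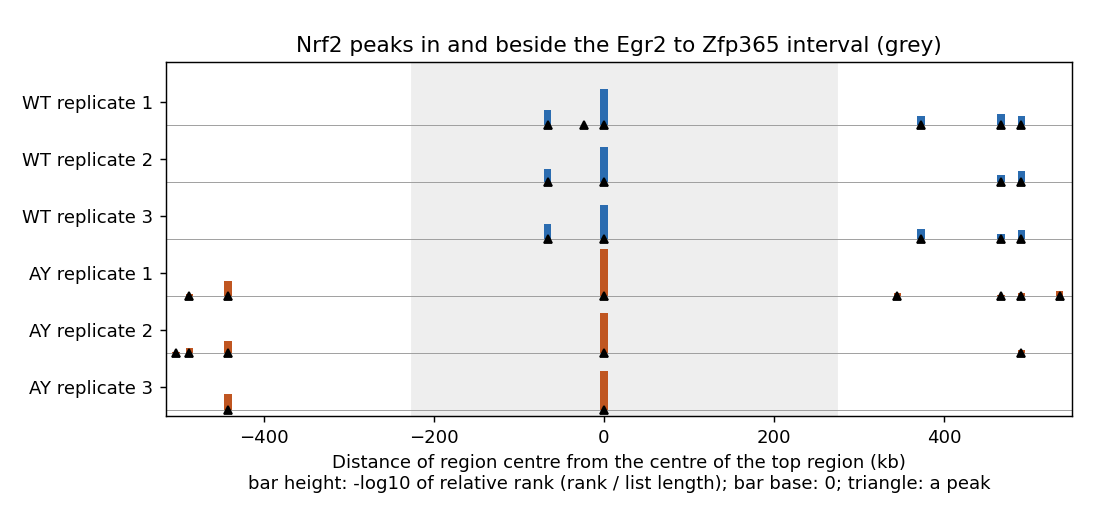
Peaks of each ChIP library by distance (kb) from the centre of the top region. Triangles mark peaks, bars give -log10 of the relative rank in the list, grey marks the interval, and the 3 nearest regions below it and the 5 nearest above it are included; all 6 libraries have their tallest bar at 0, and the region 66.1 kb below it appears in the WT rows alone.

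The top region had a peak in all 6 libraries, as did 4.87% of the 4147 regions. Its score, the value by which the authors' peak caller graded each peak, ranked 5 of 1604 in WT replicate 1, 3 of 826 in WT replicate 2 and 6 of 1533 in WT replicate 3. In AY it ranked 1 of 2154 in replicate 1, 2 of 1441 in replicate 2 and 2 of 1086 in replicate 3. The ranks of the genotypes did not overlap, with the AY libraries nearer the top. As a share of the list, WT ranks averaged 0.355% ± 0.0404 and AY ranks 0.123% ± 0.0702 (SD, n = 3 each). It was the highest-scoring peak of chromosome 10 in every library except WT replicate 1, where a region found in all 6 libraries, 82321366 to 82322322, came before it.

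Among the 202 regions found in all 6 libraries, ranked against each other alone, the top region was 4, 2 and 4 in WT replicates 1, 2 and 3 and 1 in each AY library. Non-overlapping ranks of this kind were common: 60.4% of the 202 regions had them, and 28.2% had them with AY nearer the top. A separation of ranks, in either direction, is therefore shared by most of the 202 regions found in all 6 libraries. Ranks in lists made separately do not show that more Nrf2 was bound in one genotype.

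**Figure D2:**
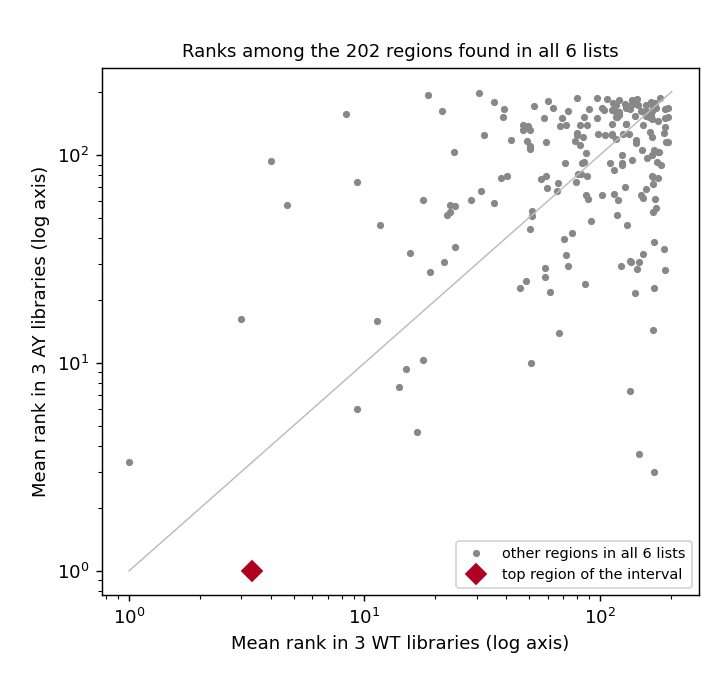
Mean rank in the 3 WT libraries (x, log axis) against the 3 AY libraries (y, log axis) for the 202 regions with a peak in every library. The top region of the interval (diamond) averages rank 3.33 in WT and rank 1 in AY; the line marks equal ranks.

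The score of this peak was 1371 in WT replicate 1, 1066 in WT replicate 2 and 937.8 in WT replicate 3. For AY replicates 1, 2 and 3 it was 3100, 2571 and 1636. The median score of a list lay between 88.8 and 119, far below it in all 6 lists. Scores depend on read depth, so only the position within a list can be read from them. In AY replicate 1 the value of 3100 was also the highest in any list, a maximum shared with 1 peak each in WT replicate 3 and AY replicate 2. Whether the score is capped at 3100 was not checked, so its size in AY replicate 1 was not read.

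The 13 peaks that scored higher than it fell in 7 regions, of which 4 were present in all 6 libraries. In AY replicates 2 and 3 and WT replicates 1 and 2, the highest-scoring peak lay in a region of 6.31 kb on chromosome 17, 39979692 to 39986003, which had no peak in WT replicate 3. In WT replicate 3 the highest-scoring peak lay in a region of 5.24 kb on X, 123301629 to 123306869, which 2 WT and 1 AY libraries held. These 2 regions are several times wider than the top region, which spans 1012 bp. When the 53 regions wider than 2 kb (1.28% of all) were left out of the lists, a choice made after the data were seen, the top region ranked 1 in each AY library and 4, 2 and 5 in WT replicates 1, 2 and 3. Among the regions of about its own width, the one on chromosome 3, from 50241592 to 50242696, preceded it in all 3 WT libraries, always at rank 2.

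The peak covered the same stretch of DNA in both genotypes. It ran over 851 bp in WT replicates 1 and 2, 700 bp in WT replicate 3, 980 bp in AY replicate 1, 995 bp in AY replicate 2 and 753 bp in AY replicate 3. The shortest, that of WT replicate 3, lay inside all the others, so that 67175724 to 67176423, or 69.2% of the merged region, was common to all 6 peaks. WT peaks averaged 801 ± 87.2 bp and AY peaks 909 ± 136 bp (SD, n = 3 each), and the difference of 109 bp was within the spread of the AY libraries (two-sided exact permutation p = 0.3). Over the 202 shared regions, the difference in width of the strongest peak had a median of 8.17 bp, with quartiles of -77.4 and 109 bp. Relative to the median width of its own list the peak was 1.43, 1.68 and 1.28 times as wide in WT replicates 1, 2 and 3 and 1.48, 1.70 and 1.47 times in the AY replicates, and these values overlap between the genotypes.

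The midpoint of the peak also coincided. Measured from the centre of the common stretch, it was at -24.5, -48.5 and 0 bp in WT replicates 1, 2 and 3 and at -26, -50.5 and -11.5 bp in AY replicates 1, 2 and 3. The AY mean was 5 bp from the WT mean, on the lower side (means -24.3 ± 24.3 and -29.3 ± 19.7 bp, SD, n = 3; two-sided exact permutation p = 0.7). For comparison, the shift between genotypes over the 202 shared regions had a median size of 23.3 bp. The difference of 5 bp between the means was smaller than the SD of either group. The deposited lists give no peak summit, so a shift within the peak was not measured.

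**Figure D3:**
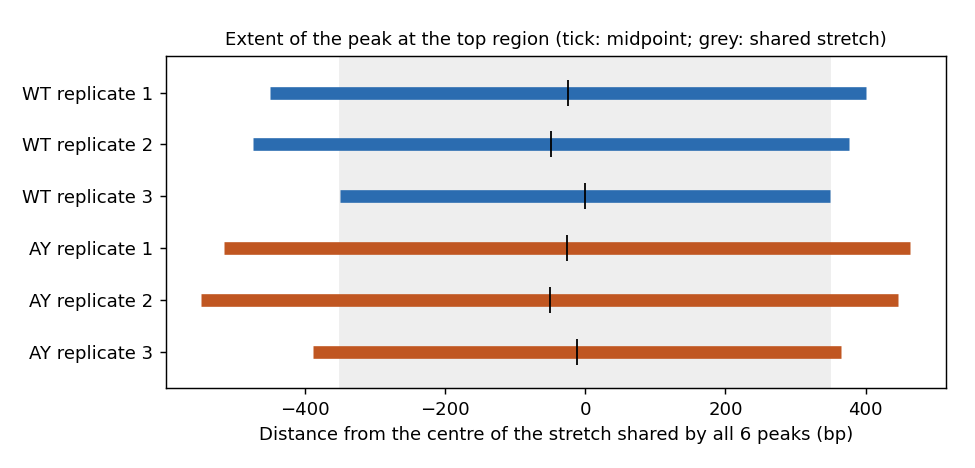
Extent of the peak at the top region in each library, in bp from the centre of the stretch shared by all 6 peaks (grey). Black ticks mark midpoints, which lie between -50.5 and 0 bp; the peak of WT replicate 3 is the shared stretch itself.

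Below the top region, with centres 66.1 kb apart, lay a region seen only in WT libraries, chromosome 10, 67109490 to 67110287. It ranked 144 of 1604 in WT replicate 1, 100 of 826 in WT replicate 2 and 141 of 1533 in WT replicate 3, and no AY list had a peak there. Of all 4147 regions, 5.21% were held by every WT library and by no AY library. With 3 libraries against 3, presence at a single region cannot give a two-sided exact p below 0.1, so it was not tested. Its rank was 10.1% ± 1.75 of the list (SD, n = 3), and it came 22nd of the 216 regions of that kind, whose median was 37.6%. The WT peaks were 792, 657 and 687 bp wide in replicates 1, 2 and 3 and shared 651 bp, from 67109631 to 67110281. In WT its score was thus far behind that of the top region but within the first 12.1% of every list, whereas the AY lists did not include it.

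The third region, 67152786 to 67153254, lay between the other two, 23.0 kb below the centre of the top region. It had a peak in WT replicate 1 alone, with a score of 53.8 that ranked 1466 of 1604, near the end of that list. Such regions were frequent, since 49.4% of the 4147 regions were seen in 1 library. Without it, the interval held 2 peaks in every WT and 1 in every AY library.

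**Figure D4:**
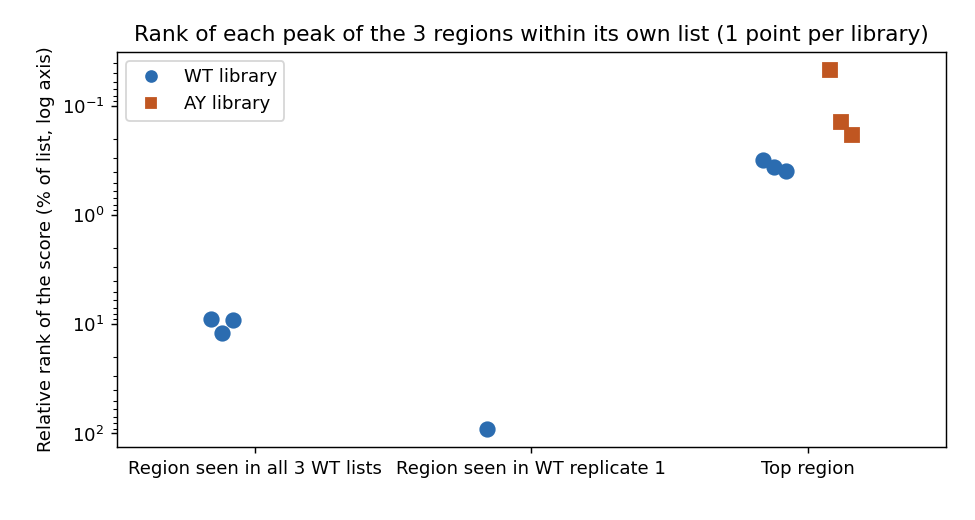
Relative rank of the score in percent of the list (log axis, top of the list upward) for each peak of the 3 regions, 1 point per library. The top region lies below 0.4% in all 6 libraries, the WT region between 8.98% and 12.1% in 3, and the third region at 91.4% in WT replicate 1.

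Of the 3 nearest regions below the interval and the 5 nearest above it, 5 had peaks in AY libraries alone, 1 in WT libraries alone and 2 in both. Over all 4147 regions, 81.4% had peaks of 1 genotype alone, many of them in 1 library, a share not split into AY and WT here. On the lower side, 215 kb from its edge, 66734035 to 66734966 had a peak in all 3 AY libraries (ranks 182, 203 and 77 in replicates 1, 2 and 3) and in no WT library. The share of all 4147 regions held in this way was not counted. Such a region lay as near, within 442 kb of the centre, at 29.7% of the 202 regions found in all 6 libraries. The 2 regions beyond 66734035 to 66734966 were 66688566 to 66689306, held by 2 AY libraries, and 66673057 to 66673507, held by AY replicate 2 alone. On the upper side the nearest was 67520716 to 67521291, 70.7 kb from the edge, with a peak in AY replicate 1 alone at rank 1376. Next came 67548136 to 67548795 in WT replicates 1 and 3, at ranks 380 and 281. Farther up, 67642695 to 67643553 was held by 3 WT libraries and AY replicate 1, and 67666505 to 67667172 by 3 WT libraries and AY replicates 1 and 2. At the second of these the rank was 16.9% to 23.8% of the list in WT and 58.0% to 59.2% in the 2 AY libraries. The outermost region, 67711347 to 67712015, had a peak in AY replicate 1 alone.

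Likeness in rank to the top region was measured by the sum of absolute differences in log2 relative rank across the 6 libraries. The closest of the 202 shared regions were other leading regions, which the choice of the top region by its rank makes near certain. The first was the chromosome 3 region named above, with a sum of 8.81, and it ranked 8, 5 and 4 in the AY lists. The second was on chromosome 2, 151930666 to 151931723, with a sum of 11.6 and ranks of 8 to 16. The next 3 had sums of 12.6 to 14.8 and were found on chromosome 6 (115616235 to 115617337), on chromosome 9 (82873705 to 82874718) and on chromosome 4 (116355287 to 116356368). Of these 5 the chromosome 4 region had the widest gap between the genotypes. It ranked 3, 7 and 3 in the WT lists and 28, 20 and 27 in the AY lists, again the opposite order to that of the top region. For the regions on chromosomes 2, 6 and 9, the ranks of the genotypes met or overlapped.

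The DNA sequence under the peaks was not used here, because no mm9 genome was at hand. Promoter windows of RefSeq (GRCm38.p6, 250 bases before to 50 after each start) were searched on both strands for the core of the antioxidant response element, spelled TGACNNNGC. Egr2 has 5 such windows, for alternative starts, and 3 of them held a match, while the 1 window of Zfp365 held none. Of all 32851 promoter windows, 12.4% held a match. The 3 Egr2 windows overlap and hold the same match, shown here on the gene's strand (plus) with the matched bases in capitals, which read as the element on the other strand:
Egr2 promoter: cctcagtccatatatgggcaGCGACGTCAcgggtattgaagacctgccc
The match begins at -59, -60 and -120 relative to the 3 starts. It is a description of the sequence. Whether any of the peaks reaches it cannot be told from these files, as the peaks and the windows are on different builds.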

How the data were processed

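ChIP-seq libraries of 3 WT and 3 AY macrophage samples were analysed; the 6 input libraries were not analysed here. The tools named in the submitters' processing notes are MACS 1.4, Bowtie2 and bcl2fastq 2.15.0, with build mm9. Settings, the control for peak calling and duplicate handling are not stated there. The authors deposited 1 peak list per ChIP library, with a score for each peak, read as -10 log10 of its p-value since the lists begin at about 50. Scores were ranked or filtered within each list and not tested between lists. Read depth is unknown.

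Starts were converted to count from 1. Peaks overlapping by at least 1 bp were joined into regions (Python 3.11.15, pandas 2.3.3), and tied scores took the smallest rank. Joining and counting were tested on simulated data. Named regions were all regions of the interval, its nearest neighbours, and the 5 best-ranked and 5 most alike regions found in all 6 libraries; the regions that outranked the top one were added after their values were seen. The interval and these rules were chosen with earlier results of these data known. Means were compared with two-sided exact permutation tests, which cannot go below 0.1 with 3 libraries against 3. The labels give each library its own identifier but name no animals, so p-values measure the spread between libraries, which may be technical. Alternatives were a score of at least 100, equal list lengths, other rules for joining peaks, wider edges, other rank measures, each library left out, and a replicate block.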

Additional observations from a re-analysis of the deposited data

How the results depend on the processing

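Adding 100 kb on each side of the interval gave 5 regions in place of 3, and a difference of -1.67 peaks between AY and WT with an exact permutation p of 0.2 in place of 0.1. The difference in relative rank of the top region, -0.232 percentage points for AY minus WT, was -0.481 with a score of at least 100 and -0.363 with lists of equal length (826 peaks), and -3 as plain ranks; shorter lists raise a relative rank by construction. Regions with non-overlapping ranks numbered 61 of 100 with a score of at least 100 and 80 of 133 with equal lists, close to the main share of 60.4%. Leaving out 1 library makes non-overlap easier by construction, as 2 libraries then stand against 3. With 1 library left out at a time there were 2 to 3 regions in the interval (2 without WT replicate 1), -1.5 to -1 for the difference in peak number, 128 to 162 regions with non-overlapping ranks (61.7% to 71.4% of the 205 to 261 regions found in every remaining library), 58.3 to 187 bp for the difference in width (187 bp without AY replicate 3, 58.3 bp without WT replicate 3 and 65.8 bp without AY replicate 2), -0.263 to -0.194 for the relative rank, and -17.1 to 7.17 bp for the midpoint. The midpoint difference changed sign without WT replicate 3 (7.17 bp) and without AY replicate 2 (5.58 bp); the cause was not tested. With the replicate number as a block, the differences were -1.33 peaks, 109 bp in width and -5 bp in midpoint, each with an exact sign-flip p of 0.25, the smallest possible. Replicate numbers were treated as names only: the deviations of same-numbered libraries from their genotype means correlated at 0.096, 0.086 and 0.195, and every library's highest correlation was with its own number, which is a hint from the data and not part of the design. No alternative can bring a p below 0.05, so the tests say nothing about stability. Unknown depth limits every absence of a peak, including that of AY peaks at the WT region.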

Other observations

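The surroundings of the top region were compared with those of the 202 regions found in all 6 libraries. A region held by all 3 WT and no AY library lay as near as here, within 66.1 kb, at 15 of the 202 (7.43%). A region held by all 3 AY and no WT library lay within 442 kb, the distance found here, at 60 (29.7%). Both neighbours were that near at 7 regions (3.47%). As the cut-offs are the distances found here, each of these counts includes the Egr2 to Zfp365 locus by construction. The number of other regions within 250 kb on either side was 2 at the top region, equal to the median over the 202 regions, whose highest value was 12. The top region thus stood in a neighbourhood of ordinary peak density.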
